A study of Danio rerio with 8 samples.

Results

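Genes of the cell cycle and of cell division were followed in whole zebrafish ovary after dietary exposure to TCDD (tetrachlorodibenzo-p-dioxin), the dioxin that activates the aryl hydrocarbon receptor. The genes were chosen by name: a probe set belonged to the group when its only annotated symbol began with 1 of 15 prefixes, namely ccna, ccnb, ccnd, ccne, cdk, cdc, mcm, plk, aurk, bub, mad2, orc, cenp, racgap or kif. This gave 109 genes on 140 probe sets, out of 8793 genes with a symbol of their own and 15502 probe sets on the array. Of the 140 probe sets, 126 (101 genes) passed the filter on dim probe sets and were tested, among 9301 tested in all. A filter on the mean over all arrays can keep a dim gene because 1 pool was bright, so the tested probe sets are not the whole group.

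The cell cycle is driven by cyclin-dependent kinases (CDKs), which are active only when bound to a cyclin: D and E cyclins act before DNA replication, A cyclins in replication and into mitosis, and B cyclins at entry into mitosis or meiosis. Origin recognition (orc) and minichromosome maintenance (mcm) proteins prepare and unwind DNA for replication, while checkpoint, kinetochore, kinase and kinesin proteins arrange and separate the chromosomes and complete cytokinesis. In fish ovary most of the RNA comes from oocytes, which are held in meiosis and store cyclin B mRNA that is translated when the oocyte matures; the follicle cells around them divide by mitosis.

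Adult females of the AB strain, 6 to 8 months old, received TCDD in their feed for 15 days. The 4 groups were a control fed 0 ppb (feed treated with the acetone solvent only) and groups fed 10, 40 and 100 ppb, that is ng of TCDD per g of feed. RNA of 5 ovaries was combined into 1 pool per group, 3 µg from each fish, and each pool was hybridised on 2 Affymetrix arrays. The arrays of a pool are technical replicates, so every p-value below compares pools by the spread between arrays and carries no variation between fish.

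Levels are log2(signal + 16) after quantile normalization, where the signal is the intensity that the submitters deposited for each probe set. A difference is the mean of the 2 arrays of an exposed pool minus that of the control pool, given ± its SE; it understates changes of dim probe sets. A gene was called higher or lower when limma's p, adjusted over all 9301 tested probe sets, was under 0.05.

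Deposited intensities differed in overall level between arrays, with medians from 28.1 to 62.25. Across the 126 tested probe sets of the group, Pearson's r between the paired normalized arrays was 0.993 in the control pool and 0.974, 0.991 and 0.990 in those fed 10, 40 and 100 ppb; it runs over probe sets, and a probe set is no replicate. The arrays of the 10 ppb pool lay furthest apart. Of the 140 probe sets, 126 read above the 95th percentile of 17 tag controls, which match no zebrafish transcript, on every array, and 2 read below it on every array. The untested probe sets were 14 in number and included the only ones for cdc42ep3, cdk5r2a, cdkl1, kif5aa, kifap3b, mcm3, mcm6 and plk2b.

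The pools differed in markers of other cells. The summed signal of the liver list was 1119 and 1205 on the 0 ppb arrays and 20663 and 5533 on those of the 10 ppb pool, against 794 to 1327 at 40 and 100 ppb. At 10 ppb 17 of its 27 tested probe sets were higher, beside 1.16% of all tested probe sets. The filter uses the mean over all arrays, so a listed probe set bright in 1 pool alone could pass through that pool. This count therefore adds no support to the summed signal. The oocyte list summed to 43016 and 42288 at 0 ppb and to 49081 and 49526 at 100 ppb. There 4 of its 21 tested probe sets were higher, beside 2.13% of all tested probe sets, and its median difference was 0.17. The leukocyte list summed to 1013 and 948 in the control pool, 731 and 676 in the 10 ppb pool, 604 and 579 in the 40 ppb pool and 435 and 496 in the 100 ppb pool. At 100 ppb 4 of its 9 tested probe sets were lower and 1 higher, beside 3.04% and 2.13% of all tested probe sets. All 6 exposed arrays lay below both control arrays for 7 of the 9, beside 9.43%. A listed probe set bright in the control pool could pass the filter through that pool, so these counts add no support to the summed signal. The red blood cell list stood at 464 and 503 at 0 ppb and at 186 and 193 at 100 ppb. Of the 16 follicle somatic genes on the array, 5 passed the filter, and 3 read below the tag controls on every array. Follicle cells were thus measured by few markers. Over their 6 tested probe sets the median difference was 0.11, 0.21 and 0.38 at 10, 40 and 100 ppb. At each dose 4 of the 6 lay above 0, beside 46.8%, 51.5% and 50.6% of all tested probe sets. At 100 ppb 1 was called higher, beside 2.13%. The germ cell gene ddx4 read 7.81 to 8.42 on the 8 arrays. In pooled tissue, fewer cells of a type and less RNA per cell cannot be told apart.

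**Figure D1:**
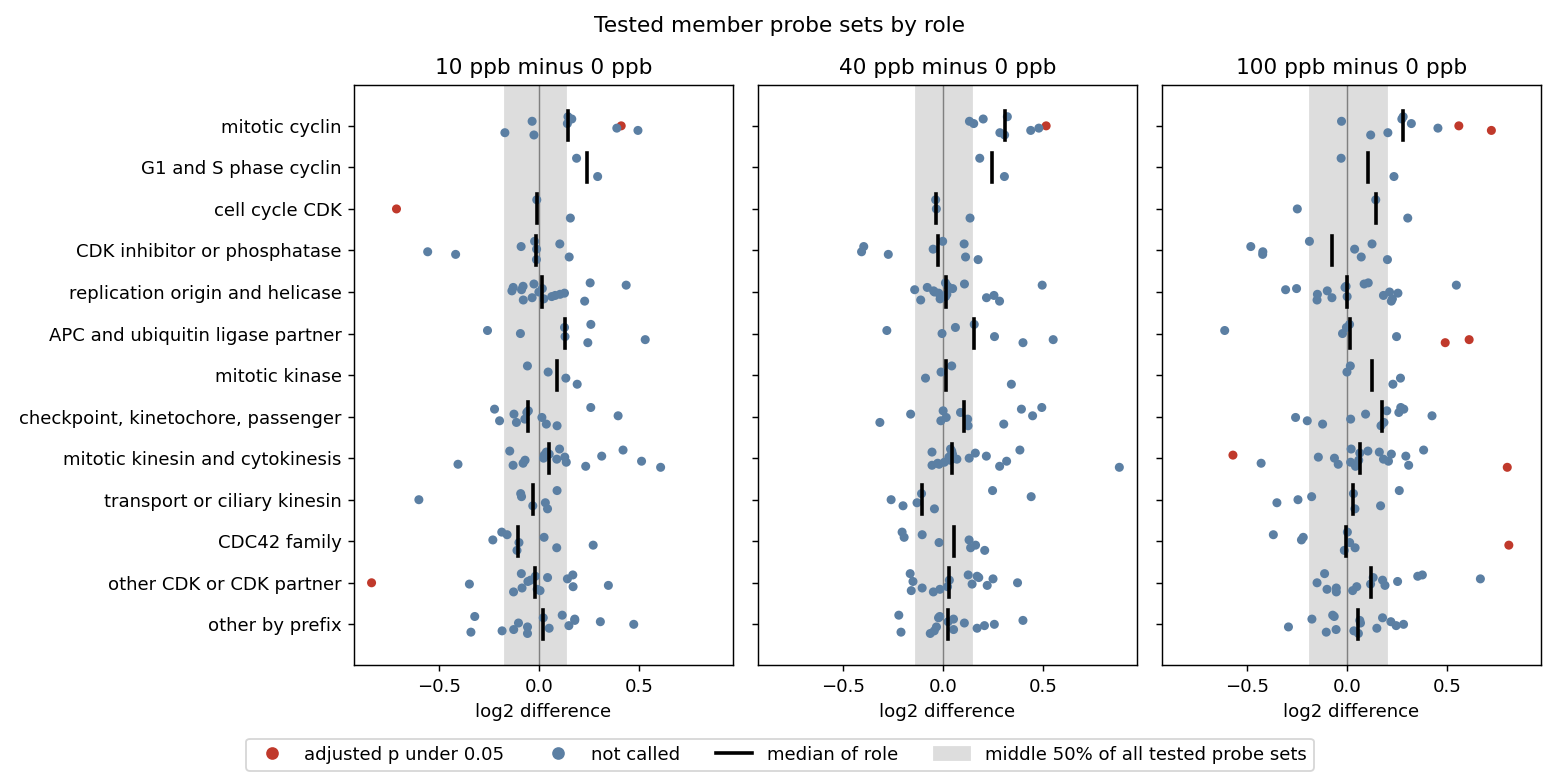
Log2 difference from the control pool (horizontal axis) of each of the 126 tested probe sets, in rows by the role of the gene, at 10, 40 and 100 ppb; each point is 1 probe set, red where the adjusted p was under 0.05, the black bars are medians of each role, and the grey band is the interquartile range of all tested probe sets. All 9 mitotic cyclin probe sets lie above 0 at 40 ppb, and no difference reaches 1 with an adjusted p under 0.05.

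Differences from the control pool were small. At 10 ppb 1 of the 126 probe sets was called higher (ccnb2) and 2 lower (cdk2 and cdk5), where 1.16% of all tested probe sets were called higher and 1.27% lower. At 40 ppb 1 was called higher, again ccnb2, and none lower, against 0.118% and 0.495% of all tested probe sets, and 125 did not pass. At 100 ppb 6 were called higher (ccnb2, ccnb3, racgap1, cdc42ep5, cdca3 and cdc34b), a share of 4.76% against 2.13% of all tested probe sets, and 1 was called lower (kif20a), against 3.04%. None of these calls reached a log2 difference of 1, whereas 1.11%, 0.344% and 1.25% of all tested probe sets were called at that size at 10, 40 and 100 ppb.

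The median difference of the 126 probe sets was 0.02 at 10 ppb, 0.04 at 40 ppb and 0.06 at 100 ppb, beside -0.02, 0.01 and 0.00 over all tested probe sets. Differences of at least 0.5 in size were found for 7, 3 and 9 of the 126 at the 3 doses, that is 5.56%, 2.38% and 7.14%, beside 6.96%, 4.61% and 10.7% of all tested probe sets. The interquartile range of the group at 100 ppb ran from -0.06 to 0.23. At an unadjusted p under 0.05 (limma), 14, 17 and 18 of the 126 were higher and 5, 1 and 8 lower at 10, 40 and 100 ppb, that is 11.1%, 13.5% and 14.3% higher and 3.97%, 0.794% and 6.35% lower, beside 6.77%, 5.87% and 11.5% higher and 8.25%, 5.78% and 11.7% lower of all tested probe sets. These comparisons share the single control pool, so a control value that is low by chance raises all 3 differences of a gene.

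The number of calls changed with the scaling and when single arrays were left out. The deposited scaling does not level the arrays, and the medians of the 2 control arrays there were 62.25 and 28.7. Such gaps widen the spread between arrays of a pool for every probe set. In the deposited scaling the median of all tested probe sets moved to -0.34, 0.14 and -0.07 at 10, 40 and 100 ppb. No member was called there at any dose, beside 64, 4 and 13 of all 9301 tested probe sets. With that spread the count cannot show whether a given call rests on scaling. The ccnb2 difference there was 0.17, 0.75 and 0.72. With arrays levelled to a common trimmed mean 2, 0 and 9 members were called, beside 251, 48 and 508 of all. At 10 ppb no member was called when one or the other control array was left out, beside 30 and 21 of all 9301. Without replicate 1 of the 10 ppb pool 6 members were called, beside 383 of all 9301. At 40 ppb none was called without either array of the 0, 40 or 100 ppb pools, beside 7 to 29 of all 9301. Without either array of the 10 ppb pool 4 members were called, beside 227 and 228 of all 9301. At 100 ppb 1 member was called without either control array, beside 95 and 83 of all 9301. None was called without replicate 2 of the 100 ppb pool, beside 90 of all. Without replicate 1 of that pool or without either 40 ppb array 4 were called, beside 104, 265 and 259 of all. Without either 10 ppb array 16 were called, beside 1286 and 1298 of all 9301.

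Processing day, which here means the day on which an array was scanned, crossed the pools. Replicate 1 of the 0, 40 and 100 ppb pools shared one day and replicate 2 of every pool another, while replicate 1 of the 10 ppb pool stood alone, so a fit with day as a block compares 10 ppb with the control through replicate 2 and leaves 2 residual degrees of freedom. For the 10 ppb pool that fit called 9 members higher (7.14%) and 4 lower (3.17%), where it called 3.45% and 3.19% of all tested probe sets. For the 40 ppb pool it called 8 higher (6.35%) and 1 lower (0.794%), where 2.12% and 2.53% of all were called. For the 100 ppb pool it called 18 higher (14.3%) and 7 lower (5.56%), where the shares of all were 10.7% and 10.7%. All 3, 1 and 7 probe sets called without the block were called with it. Further calls made with the block stand beside the genes concerned or follow here. cdca4 was called higher at 10 ppb (0.61). At 100 ppb cdca7a (0.25), cdk11b on Dr.14382.2.A1_at (0.38) and cdk13 on Dr.6889.1.S1_at (0.67) were called higher. Limma's adjusted p at 100 ppb was 0.0317, 0.023 and 0.0496 in that order. No other probe set of cdk11b or cdk13 was called there. Without a block the differences at 100 ppb spanned 0.49 over the 2 tested probe sets of cdk11b and 0.54 over the 3 of cdk13.

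Among the mitotic cyclins, ccnb2 was higher at all 3 doses. Its level was 11.31 and 11.34 on the control arrays, 11.69 and 11.78 on the 10 ppb arrays, 11.86 and 11.82 on the 40 ppb arrays, and 11.86 and 11.90 on the 100 ppb arrays. All 6 exposed arrays therefore lay above both control arrays, and the arrays of each pool differed by less than 0.1 from each other. ccnb2 encodes a B-type cyclin, a partner of Cdk1. The difference was 0.41 ± 0.08 at 10 ppb (1.33-fold, limma's adjusted p = 0.0213), 0.52 ± 0.08 at 40 ppb (1.43-fold, adjusted p = 0.0174) and 0.56 ± 0.08 at 100 ppb (1.47-fold, adjusted p = 0.00343; 2 arrays per pool). The call was kept in 9, 10 and 16 of 18 alternatives at 10, 40 and 100 ppb, and the 10 ppb difference was 0.17 in the deposited scaling. At 100 ppb the difference was 0.55 between the arrays of one processing day and 0.57 between those of another.

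ccnb3 encodes the third B-type cyclin and was measured by 4 tested probe sets. On Dr.15486.1.S1_x_at its level was 8.45 and 8.41 on the control arrays, 8.85 and 9.01 on the 10 ppb arrays, 8.92 and 8.82 on the 40 ppb arrays, and 8.98 and 9.32 on the 100 ppb arrays. Every exposed array was above both control arrays, and the call was made at 100 ppb, where the difference was 0.72 ± 0.13 (1.65-fold, limma's adjusted p = 0.014). The differences at the lower doses were 0.49 (adjusted p = 0.0925) and 0.44 (adjusted p = 0.221). The suffix x marks a probe set whose probes can match more than 1 transcript. On Dr.15486.1.S1_a_at, 6.79 and 6.72 in the control pool stood below 7.38, 6.91, 7.13, 7.35, 7.28 and 7.14 in the exposed pools, with differences of 0.39, 0.48 and 0.45 ± 0.17 that were not called without a block. The remaining pair of ccnb3 probe sets, at levels of 5.57 to 6.33, gave differences of -0.17 and -0.03 in the 10 ppb pool, 0.28 and 0.31 in the 40 ppb pool, and 0.20 and 0.12 in the 100 ppb pool, with no call.

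The other mitotic cyclins did not pass the test without a block. ccna2, the A-type cyclin of dividing cells, read 10.95 and 10.84 on the control arrays, 11.00 and 11.12 on the 10 ppb arrays, 11.14 and 11.06 on the 40 ppb arrays, and 11.25 and 11.09 on the 100 ppb arrays. Its arrays did not overlap between control and any exposed pool, and its difference at 100 ppb was 0.27 ± 0.10 (limma's adjusted p = 0.12). ccna1, the A-type cyclin known in vertebrates for expression in germ cells, read 11.58 and 11.35 on the control arrays, 11.48 and 11.73 on the 10 ppb arrays, 11.87 and 11.70 on the 40 ppb arrays, and 11.78 and 11.71 on the 100 ppb arrays. Here 1 of the 10 ppb arrays fell between the control arrays, and the difference at 100 ppb was 0.28 ± 0.11 (adjusted p = 0.173). With processing day as a block ccna1 was called at all 3 doses (0.35, 0.32 and 0.28, adjusted p = 0.043, 0.0271 and 0.018). ccnb1l, annotated as like cyclin B1, read 9.35 and 9.36 at 0 ppb and 9.50, 9.50, 9.54, 9.48, 9.63 and 9.73 on the exposed arrays, with a difference of 0.32 ± 0.10 at 100 ppb (adjusted p = 0.0828). At 100 ppb the day block brought calls for ccna2, ccnb1l and the a-suffix ccnb3 probe set too (adjusted p = 0.0176, 0.0177 and 0.0289).

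ccnb1, the B-type cyclin whose stored mRNA is best known in fish oocytes, was bright on every array and was not called at any dose. Its only probe set, Dr.25226.1.S1_s_at, has the suffix s, which like x marks probes that can match more than 1 transcript. It read 12.56 and 12.44 on the control arrays, 12.51 and 12.43 on the 10 ppb arrays, 12.67 and 12.60 on the 40 ppb arrays, and 12.44 and 12.51 on the 100 ppb arrays. The arrays overlapped at 10 and 100 ppb, and the difference at 100 ppb was -0.03 with a 95% interval from -0.20 to 0.15. Over the 9 mitotic cyclin probe sets (6 genes) the median difference was 0.14 at 10 ppb, 0.31 at 40 ppb and 0.28 at 100 ppb, and 6, 9 and 8 of the 9 lay above 0, beside 46.8%, 51.5% and 50.6% of all tested probe sets. Under the deposited scaling the cyclin median was -0.06 at 10 ppb, which is 0.27 above the median of all tested probe sets in that scaling, so its direction at 10 ppb held only relative to that median. It was 0.58 and 0.36 at 40 and 100 ppb. The oocyte markers that were higher at 100 ppb (nanos3, piwil2, org and cldnd) differed there by 0.64, 0.52, 0.41 and 0.51, while 6 of the 21 oocyte probe sets lay below 0, among them buc at -0.38 and ddx4 at -0.29. Their part in the cyclin values was not tested.

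**Figure D2:**
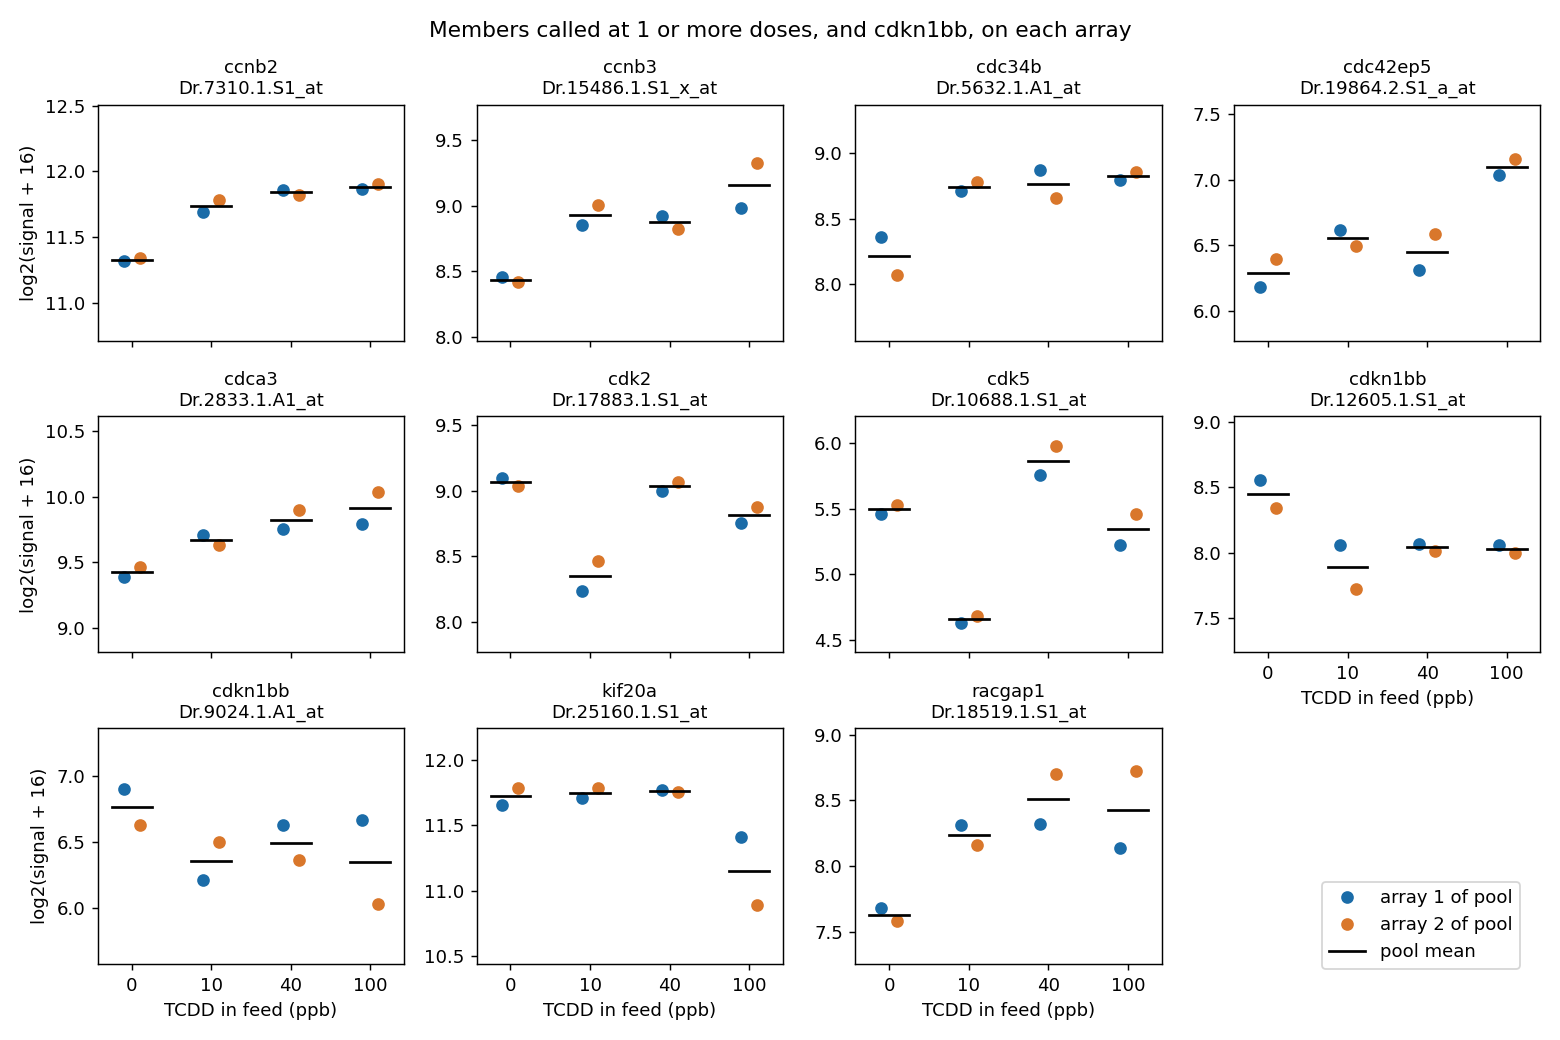
Level of each called probe set and of cdkn1bb on each of the 8 arrays, as log2(signal + 16) after normalization (vertical axis, panels of equal span around different centres), against the TCDD concentration in feed; points are arrays and bars are pool means of 2 arrays. The ccnb2 points are above both control points at every dose, cdk2 and cdk5 are low at 10 ppb, and the kif20a probe set is low at 100 ppb, where its arrays read 11.41 and 10.89.

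The cyclins of G1 and the start of replication were measured by few probe sets. ccne1, the cyclin E that partners Cdk2 at the start of S phase, read 9.88 and 9.80 on the control arrays, 10.14 and 10.13 on the 10 ppb arrays, 10.23 and 10.06 on the 40 ppb arrays, and 10.06 and 10.09 on the 100 ppb arrays. All exposed arrays were above both control arrays, yet the differences of 0.29, 0.31 and 0.23 ± 0.10 were not called (limma's adjusted p = 0.173, 0.248 and 0.181). ccnd1, the D-type cyclin that answers growth signals, was dim: its tested probe set read 5.17 to 5.60 and differed by -0.03 at 100 ppb (95% interval -0.42 to 0.36), and its other probe set was not tested.

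Of the kinases that these cyclins activate, cdk2 was lower at 10 ppb. It read 9.09 and 9.04 on the control arrays, 8.24 and 8.47 on the 10 ppb arrays, 9.001 and 9.06 on the 40 ppb arrays, and 8.75 and 8.88 on the 100 ppb arrays. The arrays of the 10 ppb pool were below those of every other pool. The difference at 10 ppb was -0.71 ± 0.12 (1.64-fold lower, limma's adjusted p = 0.0104), while at 40 ppb it was -0.03 and at 100 ppb -0.25 (adjusted p = 0.237). cdk5, a kinase known mainly from neurons and not for driving division, read 5.46 and 5.53 on the control arrays, 4.63 and 4.68 on the 10 ppb arrays, 5.76 and 5.98 on the 40 ppb arrays, and 5.22 and 5.46 on the 100 ppb arrays. It was again the 10 ppb pool that stood below the rest, by -0.84 ± 0.17 against the control (limma's adjusted p = 0.0274). At this level 1 of the 2 arrays of that pool was at or below the tag controls, so no fold is given; the difference ran from -1.57 to -0.35 over 16 alternatives, and the call was kept in 8. The 10 ppb pool is also the one with the raised liver markers, whose part in these values was not tested.

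cdk1, the kinase of mitotic entry, differed little. It read 9.36 and 9.45 at 0 ppb, 9.41, 9.37, 9.35 and 9.39 at 10 and 40 ppb, and 9.49 and 9.61 at 100 ppb. The 100 ppb arrays were the highest, and the difference there was 0.14 with a 95% interval from -0.08 to 0.37. cdk7, the kinase that activates other CDKs, read 7.81 and 7.79 on the control arrays, 8.04 and 7.87 on the 10 ppb arrays, 7.90 and 7.96 on the 40 ppb arrays, and 8.09 and 8.11 on the 100 ppb arrays. Its exposed arrays were all above the control arrays, with differences of 0.16, 0.13 and 0.30 ± 0.12 that were not called; the last was with the day block (adjusted p = 0.0432).

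Among regulators that restrain or release CDKs, cdkn1bb was the only gene with every exposed array below both control arrays, and no probe set of these 8 was called without a block. This gene encodes a Cdkn1b protein (p27, an inhibitor of cyclin E-Cdk2). Its probe set Dr.12605.1.S1_at read 8.56 and 8.34 on the control arrays, 8.06 and 7.72 on the 10 ppb arrays, 8.07 and 8.02 on the 40 ppb arrays, and 8.06 and 8.00 on the 100 ppb arrays. The arrays of each exposed pool lay together below those of the control, but the differences of -0.56, -0.41 and -0.42 ± 0.14 did not pass the test (limma's adjusted p = 0.076, 0.292 and 0.112). With processing day as a block they were called at all 3 doses (-0.67, -0.41 and -0.42, adjusted p = 0.0115, 0.0398 and 0.013), and with the replicate number as a block at 10 ppb (adjusted p = 0.0469). The second probe set gave -0.42, -0.27 and -0.42 ± 0.22, also not called, and at 100 ppb 1 of its arrays overlapped the control. cdkn3, a phosphatase that acts on CDKs, differed by -0.01, 0.17 and 0.20 ± 0.12.

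cdc25b, the phosphatase that activates Cdk1, was measured by 3 probe sets, of which Dr.25673.2.S1_at was the least repeatable of the group. It read 8.50 and 8.97 on the control arrays, 7.25 and 10.04 on the 10 ppb arrays, 7.68 and 8.99 on the 40 ppb arrays, and 7.68 and 8.82 on the 100 ppb arrays. Replicate 1 was the lower array in every pool, the SE was 0.73, and no dose was called. With processing day as a block the difference at 10 ppb, which then rests on replicate 2 of that pool, was 0.82 ± 0.21 (limma's adjusted p = 0.048). The other probe sets of cdc25b differed from the control by -0.05 to 0.12 at the 3 doses, with no call.

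The genes of replication origins and of the replicative helicase gave no call without a block. Over 17 probe sets the median difference was 0.02, 0.01 and 0.00 at 10, 40 and 100 ppb. At an unadjusted p under 0.05 (limma) 2, 1 and 1 were higher (11.8%, 5.88% and 5.88%) and 0, 0 and 1 lower (0%, 0% and 5.88%). Of all tested probe sets 6.77%, 5.87% and 11.5% were higher and 8.25%, 5.78% and 11.7% lower. mcm2, a helicase subunit, read 10.32 and 10.14 on the control arrays, 10.18 and 10.12 on the 10 ppb arrays, 10.24 and 10.27 on the 40 ppb arrays, and 10.15 and 10.30 on the 100 ppb arrays. These arrays overlapped at every dose, and the 95% interval of the difference at 100 ppb ran from -0.23 to 0.22. The helicase subunits mcm4, mcm5 and mcm7 differed by -0.01, -0.25 and 0.21 at 100 ppb, and none passed the test; with the day block mcm5 did (adjusted p = 0.042), as did mcm6l at 100 ppb (-0.31, adjusted p = 0.023) and orc6 at 10 ppb (0.50, adjusted p = 0.0363). orc1 and orc2, subunits of the origin recognition complex, differed at 100 ppb by 0.18 and 0.00, and cdc6, the loader of the helicase, by 0.09.

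The largest differences of this group belonged to cdc7, the kinase that fires licensed origins. It read 8.07 and 8.36 on the control arrays, 8.77 and 8.53 on the 10 ppb arrays, 8.71 and 8.71 on the 40 ppb arrays, and 8.65 and 8.88 on the 100 ppb arrays. All exposed arrays were above both control arrays, and the differences of 0.44, 0.50 and 0.55 ± 0.14 fell short of a call (limma's adjusted p = 0.166, 0.198 and 0.0537). With the day block those at 40 and 100 ppb were called (adjusted p = 0.0201 and 0.00457). cdc7 was singled out after its values had been seen. The mcm3 and mcm6 probe sets, which read 4.66 to 5.33 and 4.15 to 5.27, were too dim to be tested.

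The anaphase promoting complex with partners and targets of it and of ubiquitin ligases held 2 of the calls at 100 ppb. These were 2 of 7 tested probe sets, where 2.13% of all tested probe sets were called higher. cdc34b, an enzyme that passes ubiquitin on to substrates of SCF ligases, read 8.36 and 8.07 on the control arrays, 8.71 and 8.78 on the 10 ppb arrays, 8.87 and 8.66 on the 40 ppb arrays, and 8.80 and 8.85 on the 100 ppb arrays. Its exposed arrays were all above the control arrays and lay close together across doses. The difference was 0.53 at 10 ppb (limma's adjusted p = 0.0683), 0.55 at 40 ppb (adjusted p = 0.118) and 0.61 ± 0.13 at 100 ppb (1.53-fold, adjusted p = 0.0268). With the day block it was called at the lower doses too (adjusted p = 0.0188 and 0.015). cdca3, a protein known in vertebrates as a trigger of mitotic entry, read 9.39 and 9.47 on the control arrays, 9.71 and 9.63 on the 10 ppb arrays, 9.75 and 9.90 on the 40 ppb arrays, and 9.80 and 10.04 on the 100 ppb arrays. All its exposed arrays were higher than the controls, and the call was made at 100 ppb, with 0.49 ± 0.11 (1.41-fold, limma's adjusted p = 0.0338). With the day block 40 ppb was called too, at 0.40 (adjusted p = 0.0188).

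Subunits and activators of the complex itself were not called without a block. cdc26, a small subunit, read 8.14 and 8.01 on the control arrays, 8.07 and 7.57 on the 10 ppb arrays, 7.90 and 7.69 on the 40 ppb arrays, and 7.45 and 7.48 on the 100 ppb arrays. The 100 ppb arrays were the lowest, and the difference of -0.61 ± 0.17 had an adjusted p of 0.0647 (limma). It was called with the day block (adjusted p = 0.00358) and with the replicate number as a block (adjusted p = 0.0390). cdc20, the activator that starts anaphase, differed by 0.26, 0.16 and 0.01 ± 0.10 at the 3 doses, and the subunits cdc23 and cdc27 by 0.00 and -0.02 at 100 ppb.

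None of the 4 tested mitotic kinase probe sets was called by limma at any dose without a block. With the day block plk3 was called at 100 ppb (0.27, limma's adjusted p = 0.0243). At an unadjusted p under 0.05 (limma), 0 of the 4 were past at 10 ppb and 1 (25%) was higher at each of 40 and 100 ppb. The shares of all tested probe sets were 6.77%, 5.87% and 11.5% higher and 8.25%, 5.78% and 11.7% lower at 10, 40 and 100 ppb. plk1, the polo-like kinase of spindle assembly, read 11.01 and 11.18 on the control arrays, 10.95 and 11.33 on the 10 ppb arrays, 11.08 and 11.08 on the 40 ppb arrays, and 11.05 and 11.14 on the 100 ppb arrays. The arrays of all pools overlapped, and the 95% interval at 100 ppb ran from -0.27 to 0.27. aurka, the Aurora kinase of the centrosome, differed by -0.06, 0.04 and 0.02 ± 0.09, and plk4, the kinase of centriole duplication, by 0.19, 0.34 and 0.23 ± 0.15.

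Spindle checkpoint, kinetochore and passenger complex genes likewise gave no call in 12 probe sets without a block, with medians of -0.06, 0.10 and 0.18. At an unadjusted p under 0.05 there were 1, 3 and 1 higher and 0, 0 and 1 lower at 10, 40 and 100 ppb (limma). These are 8.33%, 25% and 8.33% higher and 0%, 0% and 8.33% lower. Of all tested probe sets 6.77%, 5.87% and 11.5% were higher and 8.25%, 5.78% and 11.7% lower. cdca8 (borealin, a member of the chromosomal passenger complex, named after its values had been seen) read 10.35 and 10.48 on the control arrays, 10.68 and 10.95 on the 10 ppb arrays, 10.82 and 10.92 on the 40 ppb arrays, and 10.72 and 10.97 on the 100 ppb arrays. All exposed arrays were above the control arrays, with differences of 0.39, 0.45 and 0.42 ± 0.12 and limma's adjusted p of 0.134, 0.167 and 0.0682. With the day block all 3 were called (adjusted p = 0.0187, 0.00863 and 0.00345). The checkpoint genes bub1ba and mad2l1 also had every exposed array above both control arrays, with differences of 0.27 and 0.17 at 100 ppb whereas cenpe, a kinetochore motor, differed by 0.02. Over the 12 probe sets the differences at 40 ppb ran from -0.32, on a cenp probe set, to 0.49. With the day block bub1ba was called at 40 ppb (0.49, adjusted p = 0.0228) and cdca9 was lower at 100 ppb (-0.26, adjusted p = 0.0303).

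Among mitotic kinesins and cytokinesis genes, racgap1 had the largest differences of the whole group at 40 ppb. It encodes a protein of the central spindle, where it works with the kinesin Kif23. Its level was 7.68 and 7.58 on the control arrays, 8.31 and 8.16 on the 10 ppb arrays, 8.32 and 8.70 on the 40 ppb arrays, and 8.14 and 8.72 on the 100 ppb arrays. The exposed arrays were all above the control arrays, while the arrays of the 40 and 100 ppb pools lay apart. The difference was 0.61, 0.88 and 0.80 ± 0.19 (1.52, 1.84 and 1.74-fold), and only the last was called (limma's adjusted p = 0.148, 0.0866 and 0.0382). With the day block the difference at 40 ppb was called too (adjusted p = 0.00939). At 100 ppb it was 0.46 between the arrays of one processing day and 1.14 between those of the other. kif23, its partner, differed by -0.14 and -0.06 on its probe sets at 100 ppb, with no call.

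kif20a, a kinesin of cytokinesis, was called lower at 100 ppb on 1 of its probe sets. Dr.25160.1.S1_at read 11.66 and 11.79 on the control arrays, 11.71 and 11.79 on the 10 ppb arrays, 11.77 and 11.75 on the 40 ppb arrays, and 11.41 and 10.89 on the 100 ppb arrays. The lower level was seen at 100 ppb alone, and its arrays there were more than 0.5 apart. The difference was -0.57 ± 0.14 (1.49-fold lower, limma's adjusted p = 0.0417), made of -0.25 on one processing day and -0.89 on the other. The second kif20a probe set, at 8.20 to 8.53, moved the other way, by 0.22 ± 0.12 (adjusted p = 0.292). kif11, the motor that separates spindle poles, differed by 0.10, 0.04 and 0.02 ± 0.15; with the day block it was called at 10 ppb (0.37, adjusted p = 0.0387), as was kifc1 (0.45, adjusted p = 0.0466). With that block kif4 was called lower on one probe set at 10 ppb (-0.64) and on another at 100 ppb (-0.43). Limma's adjusted p was 0.048 and 0.00702. The 3 tested kif4 probe sets did not move alike, as their differences without a block spanned 0.74 at 100 ppb. kif14 was called higher at 100 ppb with the day block (adjusted p = 0.0265).

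**Figure D3:**
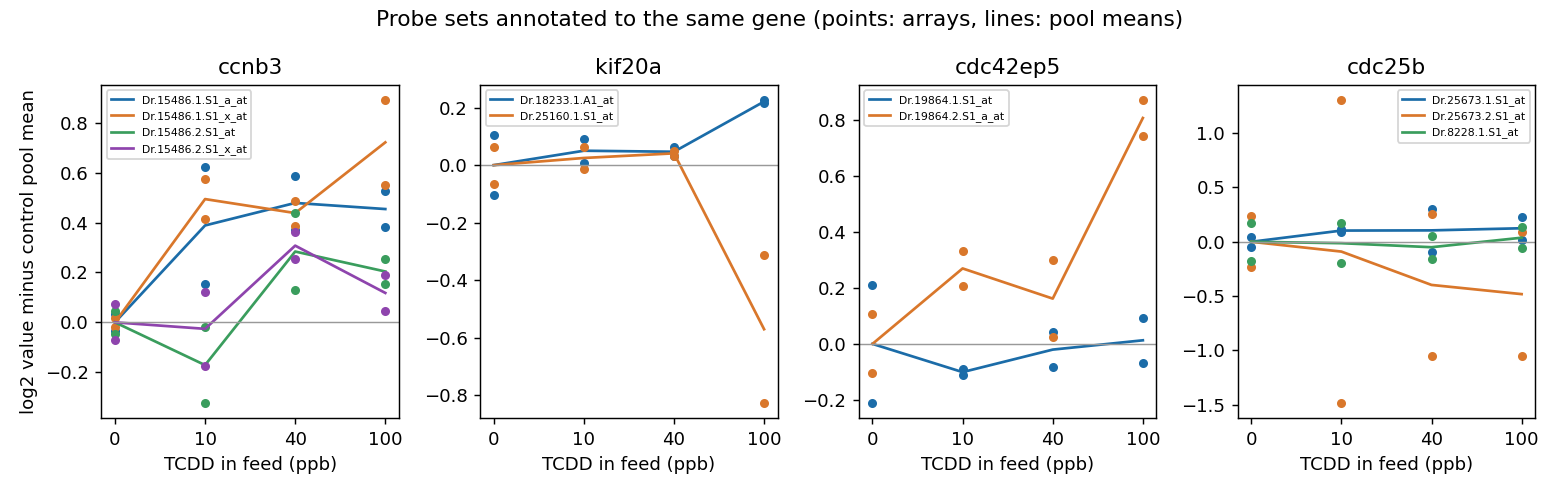
Level minus the control pool mean (log2, vertical axis) for probe sets annotated to the same gene, against TCDD in feed; points are arrays and lines join pool means. The panels show ccnb3, kif20a, cdc42ep5 and cdc25b. The probe sets of kif20a separate at 100 ppb, at -0.57 and 0.22, and those of cdc42ep5 at 0.81 and 0.01.

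Several genes with several tested probe sets gave differences that depended on the probe set. In 17 genes with more than 1 tested probe set, the median gap between the highest and the lowest difference of a gene was 0.19 at 10 ppb, 0.13 at 40 ppb and 0.24 at 100 ppb. At 100 ppb the gap was 0.79 for kif20a, 0.80 for cdc42ep5, 0.74 for kif4 and 0.60 for ccnb3, and under 0.01 for cdkn1bb.

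The prefixes also took in genes that are not part of the division machinery. cdc42ep5, an effector of Cdc42 that acts on the cytoskeleton, was called at 100 ppb on Dr.19864.2.S1_a_at, which read 6.18 and 6.39 on the control arrays, 6.62 and 6.50 on the 10 ppb arrays, 6.31 and 6.59 on the 40 ppb arrays, and 7.03 and 7.16 on the 100 ppb arrays. The 100 ppb arrays stood above all others, and the difference was 0.81 ± 0.16 (1.75-fold, limma's adjusted p = 0.0188), while the second probe set gave 0.01 ± 0.18. cdc42 itself differed by -0.22 to 0.00 at 100 ppb on 2 of its 3 tested probe sets and by -0.37 on the third, with no call. kif7, a ciliary kinesin of Hedgehog signalling, had the largest negative difference of the kinesins at 10 ppb (-0.60 ± 0.18, limma's adjusted p = 0.131), also without a call.

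By prefix, the medians at 10, 40 and 100 ppb were 0.15, 0.26 and 0.28 for ccna, 0.14, 0.31 and 0.32 for ccnb, and 0.29, 0.31 and 0.23 for ccne, which is ccne1 alone. They were 0.15, -0.02 and -0.05 for ccnd, -0.02, 0.03 and 0.09 for cdk, and 0.02, 0.06 and 0.04 for cdc. The ccnd prefix covers ccnd1 and ccndbp1, and ccndbp1 was not counted as a cyclin here. ccnd1 alone gave 0.19, 0.18 and -0.03. The replication prefixes gave -0.08, -0.04 and -0.01 for mcm and 0.04, 0.11 and 0.09 for orc. The 11 tested mcm probe sets are not all of helicase subunits, since 3 are of mcmdc2as and mcmbp is also among them. The mitotic prefixes gave 0.13, -0.01 and 0.23 for plk, -0.06, 0.04 and 0.02 for aurk (aurka alone), -0.06, 0.24 and 0.26 for bub, -0.02, 0.09 and 0.06 for mad2, and -0.09, 0.06 and -0.05 for cenp. The median was 0.04 at each dose for kif and 0.61, 0.88 and 0.80 for racgap, which is racgap1 alone. Only the ccna, ccnb, ccne and racgap medians were above 0.1 at all 3 doses. Under the deposited scaling the medians at 10 ppb shifted down with those of all tested probe sets, to -0.07 for ccna, 0.03 for ccnb and -0.34 for mcm.

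Counting arrays in place of p-values, 19 of the 126 probe sets (18 genes) had all 6 exposed arrays above both control arrays, a share of 15.1%, beside 7.68% of all tested probe sets. Only cdkn1bb had all 6 below, a share of 0.794% beside 9.43%. The 18 genes were bub1ba, ccna2, ccnb1l, ccnb2, ccnb3, ccne1, cdc34b, cdc7, cdca3, cdca4, cdca7a, cdca8, cdcp1b, cdk7, kif14, kif20bb, mad2l1 and racgap1. By role, 16 of 81 probe sets of the division machinery (19.8%) and 3 of 45 others (6.67%) were among them. The roles were assigned after the values had been seen, so this split is a description. The 6 exposed arrays come from 3 pools and share the 2 arrays of a single control pool, so the count says where the control pool lay relative to the others. Of the leukocyte list, 7 of 9 tested probe sets lay below both control arrays on all 6 exposed arrays, beside 9.43% of all tested probe sets. The part of that list in the count was not tested.

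The count changed with the arrays required and with scaling. Leaving arrays out can only raise it, because the normalized values stay the same and fewer arrays have to lie apart. Without replicate 1 of the control pool it was 29 of 126, and without replicate 2 it was 36, beside 16.2% and 16.8% of all tested probe sets. Without the 10 ppb pool it was 30, beside 15.3%. Scaled to a common trimmed mean it was 20 above and 4 below, beside 6.97% and 10.4% of all tested probe sets. In the deposited scaling, where array levels differ, it was 0, beside 0.172%.

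**Figure D4:**
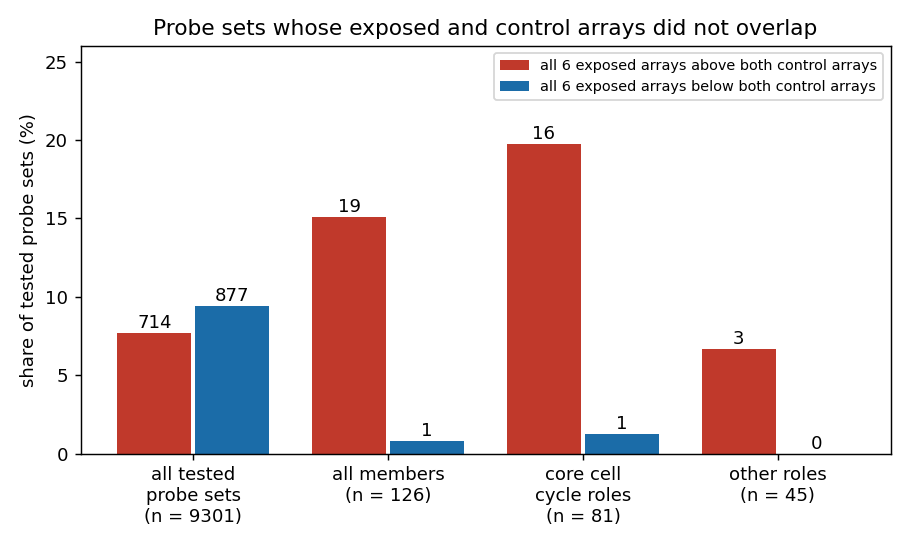
Share of tested probe sets (%, vertical axis from 0) with all 6 exposed arrays above (red) or below (blue) both control arrays, for all tested probe sets, for the group, and for the group split into division machinery and other roles; n under the bars is the number of probe sets tested and the number on each bar is the count. The group stands at 15.1% above and 0.794% below, all tested probe sets at 7.68% and 9.43%.

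Treating each pool as 1 sample, no member was called for a slope on dose. With 4 pools the fit cannot show that members did not follow dose. A slope fitted over the 4 pool means against dose rank was called for 0.0215% of all tested probe sets and for none of the 126, where the smallest adjusted p was 0.285 for cdca3 (limma, 2 residual degrees of freedom). At an unadjusted p under 0.05 there were 16 of 126 (12.7%), beside 12.2% of all tested probe sets. The 3 exposed pools against the control pool gave no call for any of the 9301 tested probe sets (0%), and 13 of the 126 (10.3%) at an unadjusted p under 0.05, beside 7.54%. For ccnb2 this difference was 0.50, with an adjusted p of 0.648.

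Between exposed pools, cdk2 and cdk5 differed between 40 and 10 ppb, where 1.47% of all tested probe sets were called in either direction. cdk2 was higher at 40 ppb by 0.68 ± 0.12 (limma's adjusted p = 0.0168) and cdk5 by 1.21 ± 0.17 (adjusted p = 0.00503). The kif20a probe set Dr.25160.1.S1_at was lower at 100 than at 10 ppb by 0.60, an estimate of -0.60 ± 0.14 (adjusted p = 0.0438), where 3.57% of all tested probe sets were called. None of the 126 differed between 100 and 40 ppb by limma, where 0.892% of all tested probe sets did, and 4 were higher (3.17%) and 7 lower (5.56%) at an unadjusted p under 0.05, beside 5.2% and 6.59% of all tested probe sets. The ccnb2 pools at 10, 40 and 100 ppb, at mean levels of 11.74, 11.84 and 11.88, were not called against each other.

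Other genes of the same processes, which the prefixes miss, gave few calls. Of 141 listed genes 103 were on the array, and 130 probe sets (101 genes) were tested. Their median difference was 0.03, 0.10 and 0.09 at 10, 40 and 100 ppb. At 10 ppb 2 were called higher, where 1.16% of all tested probe sets were: gins4, a subunit of the replicative helicase complex, by 0.63 ± 0.14, and mad1l1, a spindle checkpoint protein, by 0.55 ± 0.12. The adjusted p was 0.0499 and 0.0469 (limma). None was called at 40 ppb. At an unadjusted p under 0.05 (limma), 11, 13 and 22 were higher (8.46%, 10% and 16.9%) at 10, 40 and 100 ppb. There 3, 2 and 3 were lower (2.31%, 1.54% and 2.31%). Of all tested probe sets 6.77%, 5.87% and 11.5% were higher and 8.25%, 5.78% and 11.7% lower. At 100 ppb 1 was called higher, where 2.13% of all tested probe sets were. It was tfdp1a, the partner of E2F transcription factors, by 0.54 ± 0.12 (limma's adjusted p = 0.031). pcna, the replication clamp and the usual marker of proliferating cells, read 11.03 and 11.17 on the control arrays, 11.02 and 11.13 on the 10 ppb arrays, 11.18 and 11.24 on the 40 ppb arrays, and 11.13 and 11.28 on the 100 ppb arrays. Its arrays overlapped at 10 and 100 ppb, and the differences were -0.02, 0.11 and 0.11 ± 0.10. The proliferation marker mki67 and the topoisomerase top2a gave no call on any of their tested probe sets. Here 13 of the 130 probe sets (10%) had all 6 exposed arrays above both control arrays and 6 (4.62%) had all below, beside 7.68% and 9.43% of all tested probe sets.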

How the data were processed

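Per the submitters' processing notes, the deposited intensity values are MAS5 signals, 1 linear value per probe set and array; no source used here gives the version or the scaling target. The instrument files served only to assign the 8 arrays to 3 processing days, by the date of scanning. Days of labelling or hybridisation were not used. Here, signals were transformed as log2(signal + 16) and quantile normalized, control probe sets were left out, and those whose mean level exceeded the 40th percentile (5.11) were tested: 9301. limma 3.58.1 (R 4.3.3) fitted the 4 pool means over 8 arrays (4 residual degrees of freedom, eBayes with a variance trend), with Benjamini-Hochberg adjustment. Arrays of a pool are technical replicates, and the number of arrays limits the precision. Genes were named through the platform annotation; 137 of 140 probe sets matched a current gene table, and no symbol changed. Scaling, pseudocount, filter, blocks, single arrays and 1 probe set per gene were varied. The fits were tested on simulated data. No genome or sequence table was used, so positions and sequences are not given.

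The members, gene lists, marker lists and naming rule were chosen with earlier results of these data known. The text does not print every gene that the rule selected. The rule named called members (up to 6 each way per dose), the 3 largest differences each way per dose with no overlap of arrays, best known members whatever their values, every probe set of these genes, called genes of the other list, and 1 or more known members of each marker list. Genes outside it that the text singles out were chosen after their values were seen: ccnb1l, cdc7, cdc23, cdc27, cdca4, cdca7a, cdca8, cdcp1b, cdk11b, cdk13, cdkn3, kif14, kif20bb, nanos3, piwil2, org, cldnd, buc, plk3, mcm6l, orc6, cdca9 and kifc1. Roles were assigned by known function, also after values were seen.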

Additional observations from a re-analysis of the deposited data

Results flagged for a closer look

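The following results differ between exposed pools by the test of the difference itself (limma on all 8 arrays, adjusted over 9301 probe sets). cdk2 was 0.68 higher at 40 than at 10 ppb (adjusted p = 0.0168), because its 10 ppb arrays read 8.24 and 8.47 against 9.001 and 9.06 at 40 ppb. cdk5 was 1.21 higher at 40 than at 10 ppb (adjusted p = 0.00503), with 4.63 and 4.68 against 5.76 and 5.98. The kif20a probe set Dr.25160.1.S1_at gave -0.60 for 100 minus 10 ppb (adjusted p = 0.0438), with 11.41 and 10.89 against 11.71 and 11.79, and its second probe set gave no call. Each pool is 1 mixture of 5 ovaries, and the 10 ppb pool also carried the raised liver markers, whose part in these values was not tested.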

How the results depend on the processing

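Members called at 10, 40 and 100 ppb numbered 3, 1 and 7 as reported, beside 226, 57 and 481 of all 9301 tested probe sets. In the deposited scaling, which does not level the arrays, they were 0, 0 and 0, beside 64, 4 and 13 of all. With a replicate block they were 5, 1 and 9, beside 259, 47 and 600. With the processing day as a block they were 13, 9 and 25, beside 618, 432 and 1992. With only the 2 pools compared in the fit they were 0, 3 and 14, beside 47, 171 and 1215. With a minimum difference of 1 they were 0, 0 and 0, beside 103, 32 and 116. Scaling to a common trimmed mean gave 2, 0 and 9, beside 251, 48 and 508 of all. No filter gave 2, 1 and 4, beside 168, 37 and 351 of all 15502. Leaving out 1 array in turn gave 0 to 6, 0 to 4 and 0 to 16, beside 21 to 509, 7 to 228 and 83 to 1298 of all 9301. The median difference became -0.30, 0.21 and 0.018 in the deposited scaling, beside all-probe-set medians of -0.34, 0.14 and -0.07, and ranged over 0.0057 to 0.067, 0.038 to 0.11 and 0.027 to 0.085 when 1 array was left out. The probe sets with all 6 exposed arrays above (19) or below (1) both control arrays, and their alternatives, were counted after seeing the data. In the deposited scaling they were 0 and 0, beside 0.172% and 0.548% of all tested probe sets. Without the 10 ppb pool they were 30 and 4 (23.8% and 3.17%), beside 15.3% and 15.6%. Without 1 control array they were 29 to 36 and 8 to 9, beside 16.2% to 16.8% and 18.1% to 18.5%. Those below were 4 with the trimmed mean, beside 10.4%, and 2 with no filter, beside 7.79%. Leaving arrays out could only raise the counts of probe sets above or below, because fewer arrays then had to lie apart. The cause of the other shifts was not tested. The day block leaves replicate 1 of the 10 ppb pool, alone on its day, without weight. The dose trend gave 0 members in every alternative tried. No called difference changed sign. Calls were kept in 16 of 18 alternatives for ccnb2 at 100 ppb (9 at 10 ppb, 10 at 40 ppb), 14 for ccnb3 and cdk2, 13 for cdc34b and cdc42ep5, 11 for racgap1, 10 for cdca3 and kif20a, and in 8 of 16 for cdk5. Of 163 uncalled differences of the 58 probe sets that the rule named, 20 were called under some alternative. Genes singled out outside the rule, such as cdc7 and cdca8, are not in this count.

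The replicate number was shared between pools, and arrays of the same number deviated together at r = 0.21, 0.14 and 0.30 among the 0, 40 and 100 ppb pools but at 0.01 to 0.05 for pairs with the 10 ppb pool, so the number marks a shared processing day in those 3 pools, and pairs them, but not the 10 ppb pool, whose replicate 1 was alone on its day. Limits are 1 pool per dose, technical replicates alone, a single shared control pool, an unknown MAS5 scaling, and probe sets of 1 gene that differ.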
